A study of Mus musculus with 12 samples.

Results

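The nuclear genes of the mitochondrial ribosomal proteins were examined in mouse acute myeloid leukaemia cells that carry floxed Riok2 alleles and were or were not given the inducer of Cre. The genes were taken by symbol alone, as all rows of the authors' deposited table named Mrpl or Mrps followed by a number and at most 1 letter. That gave 77 of 24221 rows, of which 48 were named for the large subunit (Mrpl) and 29 for the small subunit (Mrps). All 77 had an adjusted p-value, so none was lost to a filter on low reads.

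The cells carry the MLL-AF9 fusion, an oncogene of acute leukaemia, and come from C57BL/6 mice per the labels. Riok2fl/fl MLL-AF9 cells given hydroxytamoxifen (OHT) were compared with Riok2fl/fl MLL-AF9 cells given its vehicle, ethanol (EtOH), with 3 samples each, both at 72 h. OHT switches on tamoxifen-dependent Cre recombinases, which cut out loxP-flanked (fl) sequence; no source used here gives the Cre transgene or its promoter. The EtOH cells received no OHT, so loss of Riok2 and any effect of OHT or Cre cannot be told apart. The labels also list 3 samples with the inhibitor RIOK2i at 1 µM and 3 with DMSO, which are not analysed here. Nothing in the labels tells whether the 3 samples of a group were grown apart, so the p-values cover only their spread, which could be technical.

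Mitochondria have their own ribosome, which makes only the handful of proteins encoded by mitochondrial DNA, all of them parts of the respiratory chain and ATP synthase. Its RNA comes from the mitochondrial genome, whereas all of its proteins come from nuclear genes, are made by cytosolic ribosomes and are imported. Some of these proteins have a counterpart in the ribosome of bacteria, and others are found only in mitochondria. RIOK2 acts elsewhere, as an atypical kinase in the cytoplasmic maturation of the small subunit of the cytosolic ribosome.

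The values are the authors' own: a base mean (normalised reads averaged over the libraries of both groups), a fold change on the log2 scale with a standard error (SE), and a p-value with its adjusted form. The table holds no values per sample, so the spread of the groups is known only through the SE. Fold changes are read as OHT over EtOH, because the targeted gene, Riok2, stood at -3.60 ± 0.20 (authors' SE) per the authors' deposited table, with an adjusted p of 7.8e-69. The table does not name its numerator. The 77 genes took 0.381% of the sum of all base means. All 9 myeloid marker genes looked up had base means of 1648 or more, while those of 5 T cell and 4 erythroid markers reached at most 16.01, and 4 of these 9, among them Cd3e and Cd8a, were at 0. Of the B cell markers Cd79a stood at 9.49, and Ms4a1 and Pax5 were at 0. Of these myeloid genes Elane, Hoxa9, Meis1 and Mpo were lower and Itgam, Ptprc and Spi1 higher in OHT past the threshold. Of the stromal and endothelial markers Pecam1 stood at 1579 and the other 3 at 35.3 or less. Among the markers of other cells Cd3d, Cd79a and Col1a1 were higher in OHT past the threshold, and the part of these shifts in the values below was not tested.

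Mitochondrial ribosomal protein genes fell together in OHT. At the authors' adjusted p under 0.05, which is the threshold throughout, 74 of 77 were lower (96.1%) and 0 were higher. Over all 13814 tested genes, 23.4% were lower and 25.5% were higher. Among the 6749 tested genes with a base mean inside the range of the 77 (204 to 2324), 30.3% were lower. The 3 genes that were not past the threshold also had negative fold changes. The median log2 fold change of the 77 was -0.80 (quartiles -0.96 and -0.62), against 0.05 over all tested genes (quartiles -0.47 and 0.67). On the linear scale that median is an OHT level of 57.4% of the EtOH level. These are bulk samples, in which fewer cells of a type and less RNA per cell cannot be told apart.

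**Figure D1:**
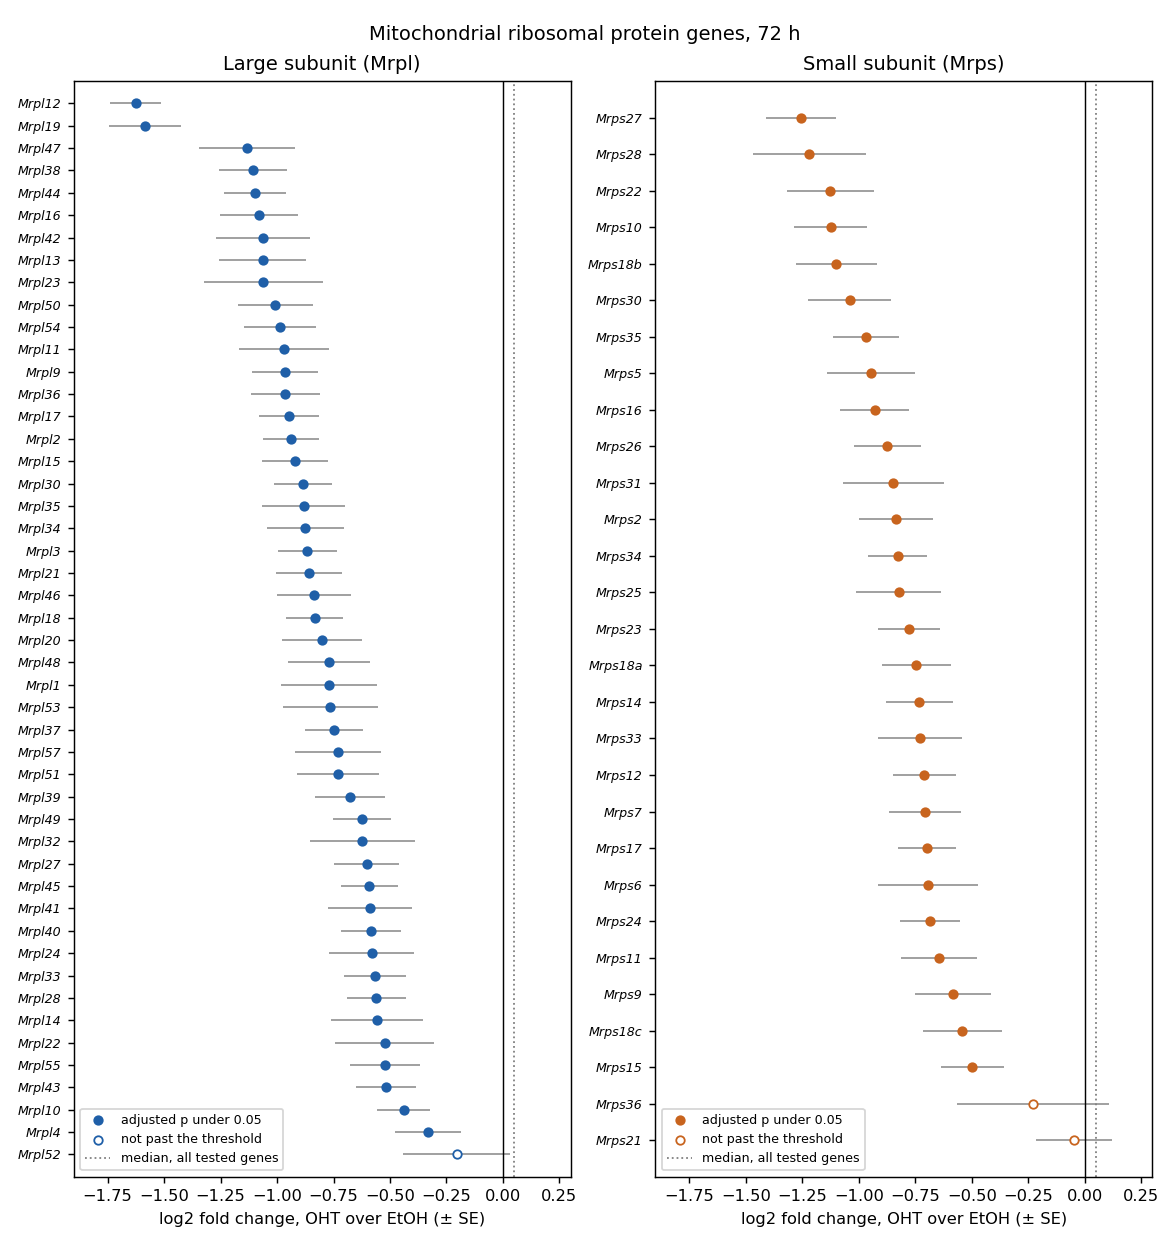
Log2 fold change, OHT over EtOH, of each Mrpl gene (left) and each Mrps gene (right), with bars of ± 1 authors' SE and the lowest fold change at the top. All 77 points lie left of 0, and the open points (Mrpl52, Mrps36 and Mrps21) did not pass the threshold.

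Of 48 Mrpl genes 47 were lower and 0 higher, with a median of -0.82 and a range of -1.63 to -0.20. Of 29 Mrps genes 27 were lower and 0 higher, with a median of -0.78 and a range of -1.26 to -0.05. The medians differed by -0.040 (Mrpl minus Mrps). Genes are not replicates, so no test was made of that difference. The SD of the log2 fold changes was 0.27 in each subunit, wider than the median SE of a gene (0.16 for the 77). A log2 fold change below -1 was found for 16 of the 77 (20.8%), 10 Mrpl and 6 Mrps, against 8.27% of all tested genes.

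A symbol does not always give the subunit. In the structure of the mammalian mitoribosome the proteins of Mrps30 and Mrps18a sit in the large subunit, and that of Mrps36 is a subunit of the 2-oxoglutarate dehydrogenase complex and no ribosomal protein. Placed by structure, 49 of 50 large-subunit and 25 of 26 small-subunit genes were lower, with medians of -0.82 and -0.80. In the authors' deposited table Mrps36 had -0.23 ± 0.34 (adjusted p = 0.60), with the widest error of the 77.

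Within the large subunit, 2 genes stood below the rest. Mrpl12 encodes the stalk protein that recruits translation factors, and its human protein also binds mitochondrial RNA polymerase. It lies on GRCm38 chromosome 11 at 120484613 to 120489065, plus strand (ENSMUSG00000039640.7, protein coding). In the authors' deposited table its base mean was 2319 and its log2 fold change -1.63 ± 0.11 (adjusted p = 7.5e-45). Of its exon bases 13.1% overlap the annotated gene Gm16755. Its OHT level was 32.4% of the EtOH level (95% interval from the authors' SE, 27.8 to 37.8%), and 1.53% of all tested genes had a fold change as low or lower. Mrpl19 (chromosome 6, 81957851 to 81965958, minus strand), whose bacterial counterpart lies at the interface of the subunits, had -1.59 ± 0.16 (adjusted p = 2.6e-21) per the authors' deposited table. The next large-subunit gene, Mrpl47, stood 0.45 above Mrpl19 on the log2 scale.

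**Figure D2:**
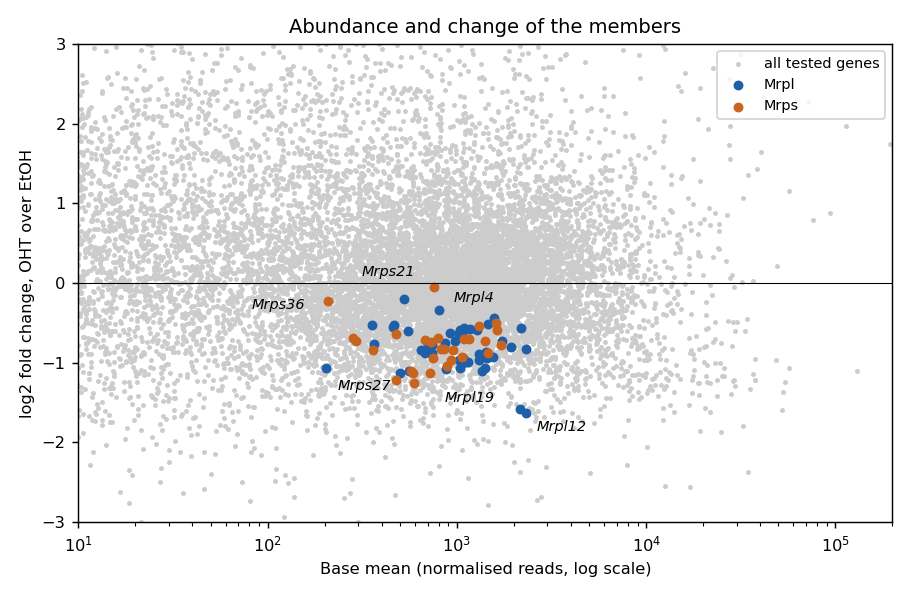
Base mean (log axis) against log2 fold change, OHT over EtOH, for all tested genes (grey), Mrpl genes (blue) and Mrps genes (orange). The 77 genes lie in a band below 0 between base means of 204 and 2324, with Mrpl12 and Mrpl19 lowest; 1860 tested genes fall outside the axes.

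The genes of the stalk of the large subunit had different values. Mrpl12 is anchored there by the protein of Mrpl10, next to that of Mrpl11. Mrpl10 stood at -0.44 ± 0.12 (adjusted p = 6.7e-04) and Mrpl11 at -0.97 ± 0.20 (adjusted p = 5.9e-06) per the authors' deposited table. Mrpl12 minus Mrpl10 was -1.19 on the log2 scale (95% interval -1.51 to -0.87, with the authors' errors taken as independent). Mrpl12 minus Mrpl11 was -0.66 (-1.10 to -0.21). These 3 genes were set beside each other after their values had been seen.

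All 30 large-subunit genes with a bacterial counterpart were lower in OHT, with a median of -0.87. Mrps18a, a paralog of bacterial protein S18, is described below and not counted among them. Besides Mrpl12 and Mrpl19, the lowest in the authors' deposited table were Mrpl47 (-1.13 ± 0.21), whose bacterial counterpart lies by the exit of the peptide tunnel, and Mrpl16 (-1.08 ± 0.17), whose counterpart lies by the catalytic centre. Mrpl13, Mrpl23, Mrpl11, Mrpl9, Mrpl36, Mrpl17, Mrpl2, Mrpl15, Mrpl30, Mrpl35, Mrpl34, Mrpl3, Mrpl21, Mrpl18, Mrpl20 and Mrpl1 followed, between -1.06 and -0.77. The other 10 genes lay between -0.62 and -0.33 and were Mrpl32, Mrpl27, Mrpl24, Mrpl33, Mrpl28, Mrpl14, Mrpl22, Mrpl55, Mrpl10 and Mrpl4. Mrpl4, whose bacterial counterpart lines the peptide tunnel, was the gene just inside the threshold, at -0.33 ± 0.15 (adjusted p = 0.049) per the authors' deposited table. Mrpl18 and Mrpl33, with Mrpl12 and Mrpl19 the most abundant of the 77, had -0.83 ± 0.12 and -0.57 ± 0.14 there, so the 4 most abundant members ran from -1.63 to -0.57.

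Of the 19 large-subunit genes found only in mitochondria, 18 were lower, with a median of -0.75. Mrpl38 (-1.10 ± 0.15, adjusted p = 3.4e-12) and Mrpl44 (-1.10 ± 0.14, adjusted p = 2.1e-14) were lowest in the authors' deposited table; Mrpl44 has a fold like that of ribonuclease III, and its human gene is mutated in a mitochondrial cardiomyopathy. Mrps30, in the large subunit despite its name, had -1.04 ± 0.18 (adjusted p = 1.1e-07) there. Mrpl42, Mrpl50, Mrpl54, Mrpl46, Mrpl48, Mrpl53, Mrpl37, Mrpl57, Mrpl51, Mrpl39, Mrpl49, Mrpl45, Mrpl41, Mrpl40 and Mrpl43 lay between -1.06 and -0.52. Mrpl52 alone did not pass, at -0.20 ± 0.24 (adjusted p = 0.50) per the authors' deposited table. The 95% interval of its OHT level, 62.8 to 120% of the EtOH level, includes 100%, and the median of the 77 (57.4%) lies just below it.

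Of the 15 small-subunit genes with a bacterial counterpart 14 were lower, with a median of -0.71. Mrps18b and Mrps18c, paralogs of bacterial protein S18, are described below and not counted among them. Mrps28, the counterpart of bacterial S1, had -1.22 ± 0.25 (adjusted p = 6.2e-06) and Mrps10, which belongs to the head of the subunit, -1.12 ± 0.16 (adjusted p = 6.1e-11) per the authors' deposited table. Mrps5, Mrps16, Mrps2, Mrps14, Mrps12, Mrps7, Mrps17, Mrps6, Mrps24, Mrps11, Mrps9 and Mrps15 lay between -0.95 and -0.50; the bacterial counterpart of Mrps12 sits at the decoding site. Mrps21 (chromosome 3, 95862634 to 95871519, minus strand) was the exception, at -0.05 ± 0.17 (adjusted p = 0.84) and a base mean of 752 in the authors' deposited table. Its OHT level was 96.8% of the EtOH level (95% interval 76.8 to 122%), an interval that does not reach the median of the 77. Its SE of 0.17 was close to the median SE of the 77 (0.16).

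All 9 small-subunit genes found only in mitochondria were lower, with a median of -0.85 and the narrowest range, -1.26 to -0.73. Mrps27, a pentatricopeptide repeat protein (chromosome 13, 99344786 to 99415562, plus strand), had -1.26 ± 0.15 (adjusted p = 1.0e-14) per the authors' deposited table, an OHT level of 41.9% of the EtOH level (33.9 to 51.7%). Mrps22, whose human gene is mutated in respiratory chain disease, had -1.13 ± 0.19 (adjusted p = 3.2e-08) there. Mrps35, Mrps26, Mrps31, Mrps34, Mrps25, Mrps23 and Mrps33 made up the rest. Between genes with a bacterial counterpart and those found only in mitochondria the medians were -0.83 (45 genes) and -0.80 (28 genes) over both subunits. Mrps18a, Mrps18b and Mrps18c, described next, are counted in neither group. The difference ran opposite ways in the subunits: genes with a bacterial counterpart had the lower median in the large subunit (-0.87, against -0.75) and the higher one in the small subunit (-0.71, against -0.85).

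Mammals have 3 paralogs of bacterial protein S18, which occupy different sites in the mitoribosome. Per the authors' deposited table Mrps18b stood at -1.10 ± 0.18 (adjusted p = 8.3e-09), Mrps18a at -0.74 ± 0.15 (adjusted p = 5.4e-06) and Mrps18c at -0.54 ± 0.17 (adjusted p = 0.0052) on the log2 scale. All 3 were lower. Mrps18b minus Mrps18c was -0.56 (95% interval -1.05 to -0.07, with errors taken as independent), Mrps18b minus Mrps18a -0.36 (-0.82 to 0.11) and Mrps18a minus Mrps18c -0.20 (-0.66 to 0.25). The intervals are not adjusted for the 3 pairs, and only the first leaves out 0. That pair is also the one in which both genes overlap another annotated gene. The overlap is 30.5% of the exon bases of Mrps18b and 23.2% of those of Mrps18c, and 0% for Mrps18a. Its part in the difference was not tested.

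The promoters were searched for motifs of factors known to act on nuclear genes of mitochondria. RefSeq promoters on GRCm38.p6, 250 bases before to 50 after the start, matched 68 of the 77 by symbol, that is all but Mrpl4, Mrpl13, Mrpl15, Mrpl19, Mrpl38, Mrpl54, Mrps28, Mrps34 and Mrps35. Both strands were searched for CCGGAAG of the ETS family, to which GABPA belongs, for GCGCATG of NRF1, for AAGATGG of YY1 and for the E-box CACGTG bound by MYC. The E-box reads the same on both strands, and the AAG that ends the ETS letters can also open the YY1 letters. The ETS letters were found in 24 of 68 (35.3%), against 17.5% of 10376 promoters of tested genes and 9.12% of all 27025. The YY1 letters were found in 13 (19.1%, against 7.20% and 6.48%), the NRF1 letters in 8 (11.8%, against 6.89% and 4.04%) and the E-box in 5 (7.35%, against 10.02% and 7.24%). None of the 4 was found in 30 of 68 (44.1%), against 64.9% of tested genes. Members with the ETS letters had a median log2 fold change of -0.75 and those without -0.77, whereas over all tested genes the medians were -0.16 with these letters and 0.12 without. Members with the NRF1 letters had a median of -0.65 and those without -0.77, with the YY1 letters -0.71 and without -0.78, and with the E-box -0.80 and without -0.76. These medians are descriptions and were not tested.

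The 150 bases before the RefSeq start are printed for Mrpl12 and Mrps22, which fell, and for Mrpl52 and Mrps21, which did not pass the threshold, so that both kinds can be compared. They lie at chr11:120484487-120484636 (plus), chr9:98601680-98601829 (minus), chr14:54426759-54426908 (plus) and chr3:95871515-95871664 (minus) of GRCm38.p6, and capitals mark the motif letters.
Mrpl12: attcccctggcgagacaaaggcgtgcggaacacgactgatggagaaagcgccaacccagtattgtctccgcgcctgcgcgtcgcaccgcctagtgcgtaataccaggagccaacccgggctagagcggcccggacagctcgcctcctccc
Mrps22: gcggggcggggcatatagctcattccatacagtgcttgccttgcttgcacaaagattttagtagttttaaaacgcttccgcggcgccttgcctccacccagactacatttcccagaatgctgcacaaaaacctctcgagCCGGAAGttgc
Mrpl52: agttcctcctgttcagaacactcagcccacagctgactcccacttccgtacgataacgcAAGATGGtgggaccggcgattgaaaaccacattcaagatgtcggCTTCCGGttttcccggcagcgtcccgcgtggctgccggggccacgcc
Mrps21: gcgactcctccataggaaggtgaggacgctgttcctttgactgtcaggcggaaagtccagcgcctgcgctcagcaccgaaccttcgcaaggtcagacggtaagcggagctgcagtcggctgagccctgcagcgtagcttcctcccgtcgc
The ETS letters begin 11 bases before the start in Mrps22 and 47 in Mrpl52, where the YY1 letters begin 91 bases before it. The 150 bases of Mrpl12, the gene that fell most, hold none of the 4 motifs, and those of Mrps21 hold none either. Elsewhere in the searched window Mrps21 holds the ETS letters, while Mrpl12 holds none. The same stretches of Mrps27 and Mrpl47, which also fell, and of Mrps36, not past the threshold, are not printed. In Mrps27 the ETS letters begin 48 bases before the start, and the 150 bases of Mrpl47 and Mrps36 hold none of the 4 motifs. CTTCCGG is CCGGAAG read on the other strand. A match describes these letters in this window and is not a measured binding site.

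Genes of the mitoribosome and its helpers with other symbols mostly showed the same direction. Of 6 mitoribosomal proteins with another name 5 were lower and 0 higher, with a median of -0.94. By comparison, 23.4% of all tested genes were lower and 25.5% higher. In the authors' deposited table Gadd45gip1 had -1.26 ± 0.15, Chchd1 -1.23 ± 0.23, Ict1, which releases peptides from stalled mitoribosomes, -0.83 ± 0.24, and Dap3, a GTP-binding protein, -0.60 ± 0.15. The other 2, named after their values were seen, were in the authors' deposited table Ptcd3, a pentatricopeptide repeat protein of the small subunit (-1.05 ± 0.15), and Aurkaip1, the gene not past the threshold (-0.21 ± 0.14, adjusted p = 0.21).

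Of 26 factors that assemble the mitoribosome, 18 were lower and 0 higher, with a median of -0.59. Of all tested genes 23.4% were lower and 25.5% higher, to set beside each list here. Wbscr16, now Rcc1l, had -1.36 ± 0.19 and Rnmtl1, now Mrm3, which methylates the large ribosomal RNA, -1.34 ± 0.29 in the authors' deposited table, while Trub2 (-0.42 ± 0.13) and Mpv17l2 (-0.36 ± 0.16) had the smallest changes among those past the threshold. Among 17 factors of mitochondrial translation 13 were lower and 0 higher, with a median of -0.57, and 1 not past the threshold had a positive fold change. The elongation factor Tsfm (-1.08 ± 0.19) and the release factor homologue Mtrf1 (-1.08 ± 0.25) were lowest there, and Taco1 (-0.44 ± 0.16) and the initiation factor Mtif2 (-0.43 ± 0.17) had the smallest changes past the threshold in the authors' deposited table. Of 24 factors for mitochondrial DNA and its transcripts 20 were lower and 1 higher, with a median of -0.69. The helicase Peo1, now Twnk (-1.24 ± 0.15), and the topoisomerase Top1mt (-1.23 ± 0.19) fell most in the authors' deposited table, and the poly(A) polymerase Mtpap (-0.43 ± 0.15) fell least among those past the threshold. The 1 that rose was Polg, the catalytic subunit of the mitochondrial DNA polymerase (0.58 ± 0.23, adjusted p = 0.027), in the authors' deposited table.

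**Figure D3:**
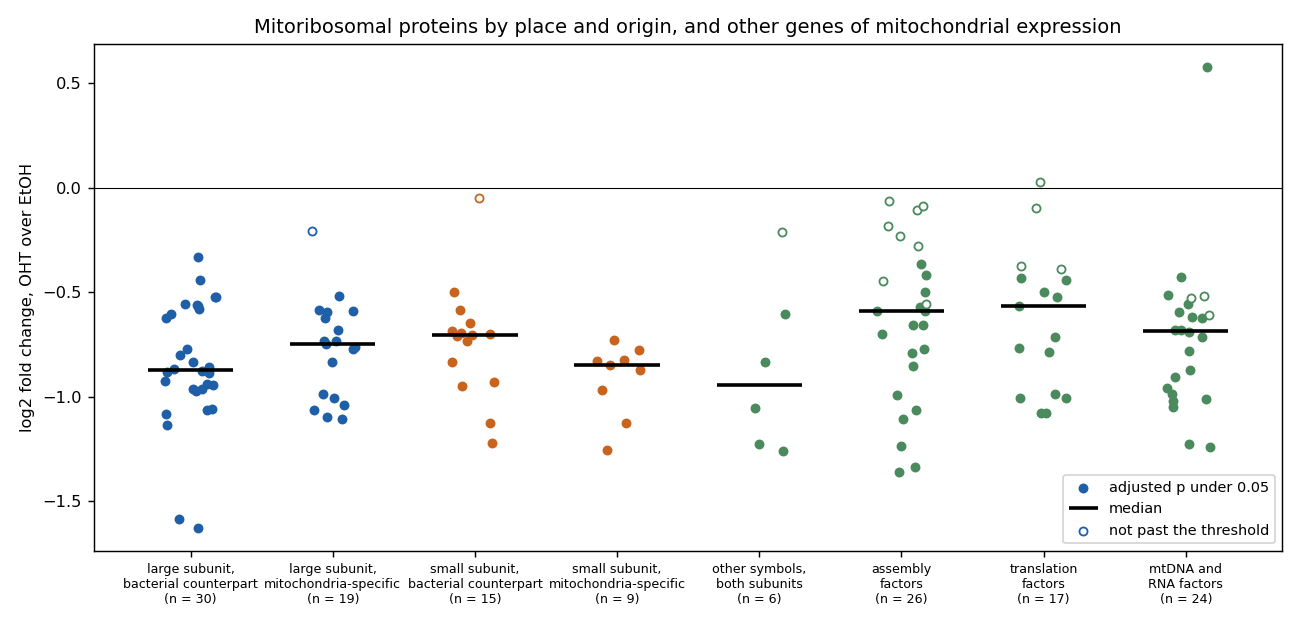
Log2 fold change, OHT over EtOH, of mitoribosomal protein genes by subunit and by presence of a bacterial counterpart (blue and orange). Green points are mitoribosomal proteins with other symbols and other genes of mitochondrial expression. Black bars are medians and open points did not pass the threshold. The medians of the 4 blue and orange groups lie between -0.87 and -0.71. That of the proteins with other symbols is -0.94, and those of the 3 factor groups lie between -0.69 and -0.57. The S18 paralogs and Mrps36 are not drawn.

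Cytosolic ribosomal protein genes were lower too, with medians further below 0. Of 48 tested rows named Rpl 47 were lower, with a median of -1.21, and of 32 named Rps 31 were lower, with a median of -1.17. Paralogs such as Rpl22l1 are included. The share of all tested genes that were lower was 23.4%. The median base means were 1040 for Mrpl and 794 for Mrps, against 10083 for Rpl and 14075 for Rps. The difference between the mitochondrial and the cytosolic medians was not tested.

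**Figure D4:**
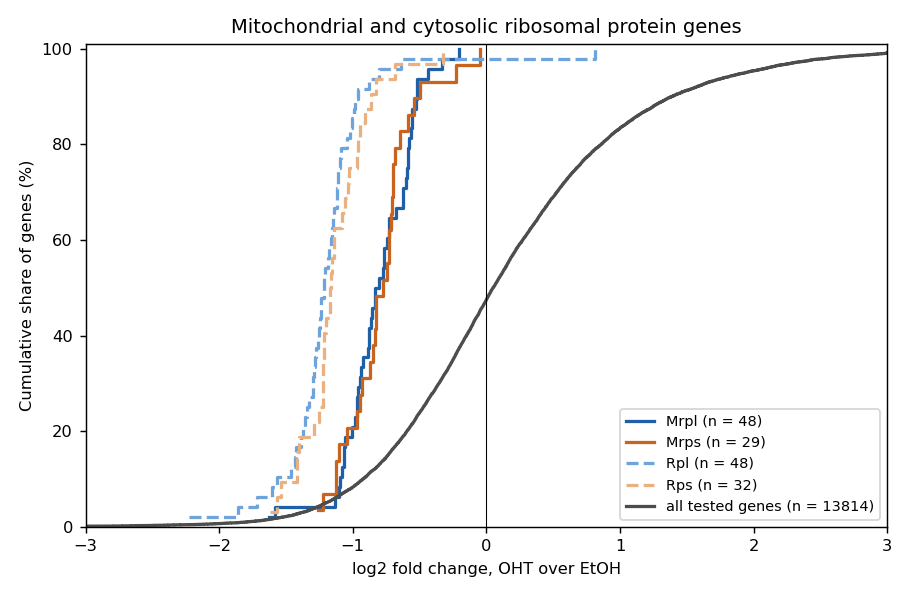
Cumulative share of genes (%) by log2 fold change, OHT over EtOH, for mitochondrial (solid blue and orange) and cytosolic (dashed) ribosomal protein genes and for all tested genes (dark grey). The Mrpl and Mrps curves run together around medians of -0.82 and -0.78, right of the Rpl and Rps curves (-1.21 and -1.17) and left of all tested genes (0.05).

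The changes followed abundance little, if at all. Spearman's rho between base mean and log2 fold change was -0.009 over the 77, and Pearson's r with log2 base mean was -0.15. Over all 13814 tested genes this rho was -0.11. Per kilobase of exon, base means ran from 41.8 (Mrpl23) to 1663 (Mrpl18), with a median of 371. Exon length, from GENCODE M21, merges the exons of all annotated transcripts of a gene. It can therefore exceed the length of the transcripts expressed. It had a rho of -0.35 with the fold change over the 77, genes with longer merged exons being lower, whereas over 13586 tested genes rho was 0.18. These are descriptions across genes of the same libraries.

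Neighbouring genes did not all move with the mitoribosomal genes. The exons of 32 of the 77 overlap those of another gene, 18 of them over more than 10% of their bases, and no source used here gives the strand setting of the counting. That share adds up the overlap with each other gene and is capped at 100%. A base shared with 2 genes counts for each, so it can overstate the overlap. For Mrps34 the share is 100%, with Mapk8ip3 and Nme3, and for Mrpl53 it is 89.9%, with Ccdc142os and Gm42688. For Mrps25 it is 69.8%, with Nr2c2, and the values of these 3 genes are uncertain. For Mrpl19, 36.0% of the exon bases overlap Gcfc2. The same limit holds for other overlapped genes, among them Mrpl43 (33.4%, with Twnk), Mrps18b (30.5%), Mrps27 (24.2%) and Mrpl47 (24.2%). Of the 45 genes with no overlap, 42 were lower. In addition, 18 of the 77 have a protein coding neighbour on the other strand that starts within 1000 bases upstream of them, head to head with no overlap. All 18 were lower, with a median of -0.74. Of their neighbours 7 were lower, 2 higher and 9 not past the threshold, with a median of -0.37. Over all tested genes, 23.4% were lower and 25.5% higher, with a median of 0.05. In the authors' deposited table Mrpl2 had -0.94 ± 0.12 beside Klc4 at 1.42 ± 0.18, and Mrpl41 had -0.59 ± 0.19 beside Pnpla7 at 0.99 ± 0.17. Mrps12 (-0.71 ± 0.14) and its neighbour Sars2, which encodes the mitochondrial seryl-tRNA synthetase (-0.95 ± 0.19), were both lower there. So were Mrps27 and Ptcd2 (-0.72 ± 0.15), the gene of another mitochondrial pentatricopeptide repeat protein, whose starts lie 81 bases apart. Mrps18b had -1.10 ± 0.18 beside Ppp1r10 at 0.06 ± 0.23 (adjusted p = 0.84) in the same table, with starts 45 bases apart. Spearman's rho between the members and their neighbours was -0.028 over the 18 pairs. Another 14 pairs start within 1000 bases of each other with overlapping 5′ ends, and in 1 of them both genes are mitoribosomal, Mrpl46 and Mrps11, which were both lower. With these added, a choice made after seeing the data, all 31 members in pairs with a tested neighbour were lower, with a median of -0.83. Of the 31 neighbours 14 were lower, 3 higher and 14 not past the threshold, with a median of -0.47, and rho was 0.070. The pairs named here were chosen after their values were seen.

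**Figure D5:**
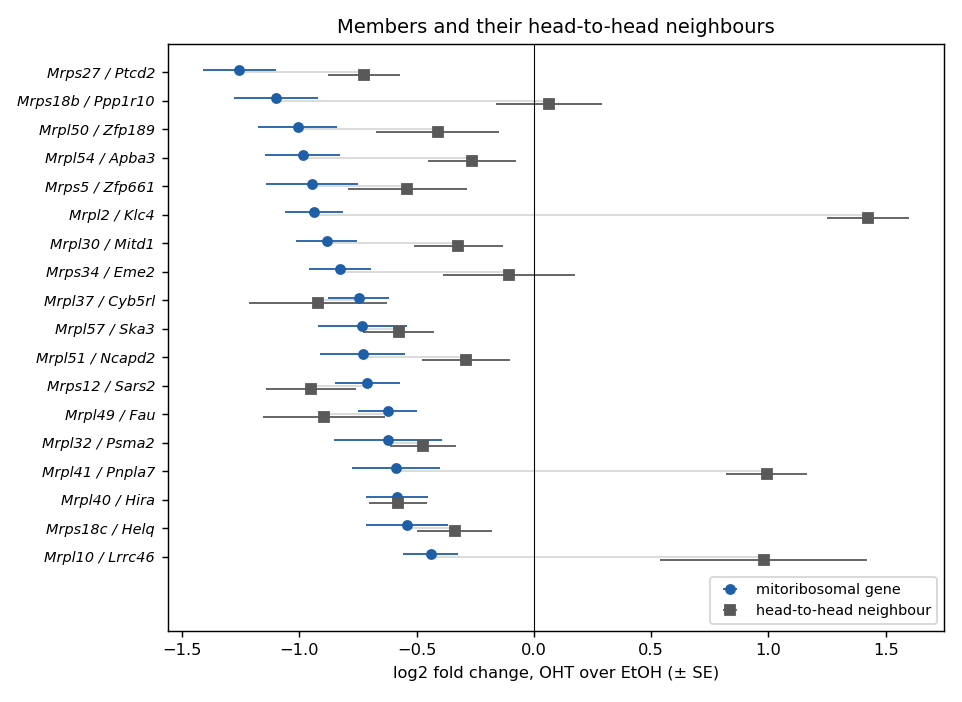
Log2 fold change, OHT over EtOH, with bars of ± 1 authors' SE, of 18 mitoribosomal protein genes (circles) and of the protein coding gene that starts upstream of each, head to head (squares). All 18 circles lie below 0, and the squares run from -0.95 (Sars2) to 1.42 (Klc4).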

How the data were processed

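RNA of 12 samples in 4 groups of 3 was sequenced from silica-column RNA and TruSeq libraries, per the labels. The submitters' processing notes list DESeq2, DESeq, HTSeq 0.9.1, STAR 2.7.2b and Trimmomatic 0.38.0, with mm10, and no source used here gives the annotation, counting options or strand. The authors' comparison table used here holds base means (a signal, in normalised reads), log2 fold changes and their SE (also log2), Wald scores, and raw and adjusted p-values. The columns are only numbered; the deposited score equals fold change over SE to within 7.6e-08 and the adjusted p-value that of Benjamini and Hochberg over the 13814 tested genes to within 2.3e-07. No SE exceeds 0.747, as shrinkage of the fold changes would give; no source used here says whether the authors shrank them. The SE of the members is 0.11 to 0.34. There are 0 columns per sample.

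Calls use the authors' adjusted p under 0.05 over all tested genes. Levels in percent and 95% intervals (normal) were computed from fold change and SE with Python 3.11.15, pandas 2.3.3 and scipy 1.17.1. GENCODE M21 (GRCm38, the assembly of mm10) gave positions, exon lengths and overlaps; names were matched through RefSeq synonyms. Centring and adjustment were run on simulated data with few changed genes, set up or down at random. That checks the calculation and does not show that centring suits these data, in which many genes changed. The members and lists were chosen with earlier results of these data known. Named genes are the 6 lowest Mrpl and Mrps, all members not past the threshold, the 4 most abundant, Mrps18a, Mrps18b, Mrps18c, Mrps30, Mrps36 and Mrpl12, the genes next to the threshold, and in each list the 2 lowest and 2 highest past it; other members are named so that each is accounted for.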

Additional observations from a re-analysis of the deposited data

How the results depend on the processing

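No value per sample is given in the table, so leaving out replicates was not possible, and no 1 library's part is known. No paired analysis was possible because the comparison has no columns per sample. The 74 lower members became 70 at an adjusted p under 0.01, where 2640 of 13814 tested genes were lower and 2855 higher. With no filter on low base means (Mrpl4 stands at the threshold) there were 73, against 3129 lower and 3411 higher of 17477. At base means of 100 or more there were 74, against 3025 lower and 2954 higher of 9888. With fold changes centred on the median of all tested genes there were 74, against 3487 lower and 3307 higher of 13814. With a log2 fold change of at least 0.5 there were 71, against 2679 lower and 3087 higher of 13814. By place in the mitoribosome 74 of 76 were lower, and with other symbols added 79 of 83. Of the members 0 were higher under each of these settings. The difference of the medians, Mrpl minus Mrps, was -0.040 and ran from -0.056 to -0.017 with the base mean minimum, centring, place in the mitoribosome, other symbols, a mean weighted by the SE, and members with no overlapping gene. Within 2 groups chosen after seeing the data it was -0.16 for genes with a bacterial counterpart and 0.12 for genes found only in mitochondria, so its sign depends on which members are taken; the cause was not tested. Relative change only is measured: if total RNA per cell differed, the table would not show it.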
